A study of Mus musculus with 6 samples.

Results

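The S phase and mitosis genes described here are 49 mouse genes that serve DNA replication and cell division, measured by RNA-seq in leukemia cells carrying the KMT2A-MLLT3 fusion. They were taken by symbol from a given list, 24 replication genes from Mcm2 to Cdca7 and 25 mitotic genes from Ccnb1 to Ccnf, and all 49 were found among the 49585 gene IDs of the count table. The 6 libraries came from 2 leukemias, K3174 and K3117, each with 1 library labelled DOT1L High, DOT1L Low and NT. All of them derived from marrow of mice that were dying of acute myeloid leukemia driven by KMT2A-MLLT3, and the cells were grown with mouse interleukin 3, interleukin 6 and stem cell factor. In the DOT1L groups the cells had been transduced with DOT1L, a histone H3 lysine methyltransferase, sorted into a high and a low expressing population and harvested 3 days after the sort. The same 3 days are listed for the NT libraries. Beyond that, the labels do not spell out NT and do not say whether those cells were transduced or sorted. The labels give no strain, age, vector or promoter, and they do not say whether a K number stands for 1 mouse, so p-values measure the spread between these samples, which may in part be technical. If NT cells were handled differently, handling and DOT1L cannot be told apart in the contrasts with NT. The question put to the genes here was whether replication and mitotic transcripts differed between the DOT1L populations and NT within each leukemia.

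Before DNA is copied, loading factors place the MCM helicase on origins in G1, and cyclin E and E2F transcription factors drive the genes whose products then unwind and copy the DNA. The genes of mitosis peak later, in G2 and M, when the MuvB complex with B-MYB and FOXM1 acts at promoters that hold a CHR element together with CCAAT boxes bound by NF-Y. In myeloid leukemia, as in normal marrow, dividing precursors express both programs and maturing granulocytes leave the cycle.

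The promoter sequences of the genes show how often these elements are found. RefSeq promoter windows on GRCm38.p6, from 250 bases before to 50 bases after a gene's start, were matched for 41 of the 49 genes, with 24 windows for 20 replication genes and 22 windows for 21 mitotic genes. Stretches of 160 bases that end just before the start are shown for genes chosen as examples, 3 of replication and 4 of mitosis, 5′ to 3′ on the gene's own strand. Capitals mark matches to an E2F octamer (TTTCCCGC, TTTCGCGC, TTTGCCGC or TTTGGCGC), to the CHR hexamer TTTGAA or to the NF-Y pentamer CCAAT, each searched on both strands.
Cdca7: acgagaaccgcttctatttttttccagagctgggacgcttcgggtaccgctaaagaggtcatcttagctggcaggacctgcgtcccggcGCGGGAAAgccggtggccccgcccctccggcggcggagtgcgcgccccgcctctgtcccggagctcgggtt
Mcm5: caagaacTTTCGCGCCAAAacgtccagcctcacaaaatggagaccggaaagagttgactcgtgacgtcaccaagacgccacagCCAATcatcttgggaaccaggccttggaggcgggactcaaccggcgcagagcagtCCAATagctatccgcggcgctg
Mcm6: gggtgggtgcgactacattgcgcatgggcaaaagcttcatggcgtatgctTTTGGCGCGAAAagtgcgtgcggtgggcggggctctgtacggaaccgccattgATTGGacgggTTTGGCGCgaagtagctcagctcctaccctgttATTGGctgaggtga
Cdc20: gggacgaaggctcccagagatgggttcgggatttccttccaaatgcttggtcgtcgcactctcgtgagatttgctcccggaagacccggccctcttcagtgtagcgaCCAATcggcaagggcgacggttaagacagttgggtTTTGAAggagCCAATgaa
Ube2c: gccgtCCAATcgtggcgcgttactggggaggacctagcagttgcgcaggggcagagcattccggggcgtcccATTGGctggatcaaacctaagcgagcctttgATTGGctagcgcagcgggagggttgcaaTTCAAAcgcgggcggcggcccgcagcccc
Mki67: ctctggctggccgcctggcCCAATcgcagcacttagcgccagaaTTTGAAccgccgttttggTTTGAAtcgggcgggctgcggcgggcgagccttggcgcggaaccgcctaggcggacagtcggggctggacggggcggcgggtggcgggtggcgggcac
Top2a: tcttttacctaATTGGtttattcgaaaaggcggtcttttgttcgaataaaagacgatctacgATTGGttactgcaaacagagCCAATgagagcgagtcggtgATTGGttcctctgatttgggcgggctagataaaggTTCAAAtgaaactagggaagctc
The Cdca7 stretch lies at chr2:72476059-72476218 on the plus strand, that of Mcm5 at chr8:75109349-75109508 on the plus strand and that of Mcm6 at chr1:128359706-128359865 on the minus strand. The Cdc20 stretch lies at chr4:118437344-118437503 on the minus strand, that of Ube2c at chr2:164769769-164769928 on the plus strand, that of Mki67 at chr7:135716380-135716539 on the minus strand and that of Top2a at chr11:99024190-99024349 on the minus strand. Cdca7 holds a lone E2F octamer on the reverse strand. Mcm5 and Mcm6 each hold an E2F octamer that overlaps a second on the other strand, so that their capitals run on. All 4 mitotic stretches hold at least 1 CHR hexamer and at least 1 CCAAT box, and none of them an E2F octamer. The examples do not stand for every gene of their class. The windows of Mcm2, Pcna, Rrm2, Tyms, Ccne1, E2f1 and Slbp held no E2F octamer, and those of Ccnb1 and Birc5 no CHR hexamer.

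Over whole windows, an E2F octamer was found in 9 of 24 replication windows (37.5%) and in 1 of 22 mitotic windows (4.55%), against 744 of all 32851 RefSeq windows (2.26%). The CHR hexamer was found in 3 replication windows (12.5%) and in 17 mitotic windows (77.3%), against 17.9% of all windows. CCAAT stood in 13 replication windows (54.2%) and in 20 mitotic windows (90.9%), against 37.4% of all windows. CHR and CCAAT occurred in the same window for 2 replication windows (8.33%) and 17 mitotic windows (77.3%), against 6.95% of all windows. A match is a string of letters and no measure of binding, and several genes have more than 1 window.

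**Figure D1:**
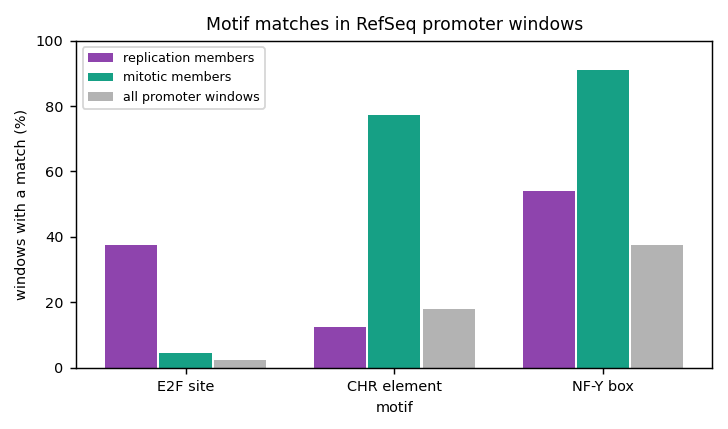
Share of RefSeq promoter windows (percent, vertical axis) with at least 1 match to an E2F octamer, the CHR hexamer or the NF-Y box, for the 24 replication windows (purple), the 22 mitotic windows (green) and all 32851 windows (grey). The E2F bar stands highest for replication genes at 37.5%, and the CHR bar for mitotic genes at 77.3%.

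The whole table gave between 22908445 and 33265848 counts per library, and all 49 genes passed the filter on low counts, with between 152 and 38477 counts each. The leukemia and early myeloid markers Ptprc, Spi1, Kit, Cd34, Mpo, Hoxa9, Meis1 and Itgam were all expressed. In High against NT, Spi1, Kit, Mpo and Itgam rose and Cd34, Meis1 and Hoxa9 fell, and the 8 genes summed to 1810, 3250 and 3420 CPM (counts scaled to a common library size by TMM) in NT, Low and High of K3174, and to 1210, 1740 and 2130 CPM in K3117. Dot1l stood at 158, 152 and 136 CPM in NT, Low and High of K3174, and at 128, 184 and 149.8 CPM in NT, Low and High of K3117. It passed neither in High against NT (log2 fold change -0.00 ± 0.15 SE, edgeR adjusted p = 1) nor in Low against NT (0.23 ± 0.14, adjusted p = 0.62). Without the NT library of K3174 it was higher in Low than in NT (0.49, adjusted p = 0.0129). The order of the labels differed between the leukemias, and the labels do not say whether reads of the introduced DOT1L would align to it.

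Levels differed widely between the 49 genes and little between libraries. Together they took between 1.05% and 1.21% of a library's counts. Per kilobase of exon, the highest mean levels over the 6 libraries were those of the sliding clamp Pcna (194 CPM per kb), the helicase subunit Mcm3 (151 CPM per kb) and Rrm2, the small subunit of ribonucleotide reductase (140.0 CPM per kb). Mcm6, Mcm5, Top2a, Mki67 and Mcm7 followed between 139 and 103 CPM per kb. At the low end stood Cenpf (8.65 CPM per kb), Gins2 (8.84), the spindle midzone protein Prc1 (9.31), Ccnf (10.5) and Ttk (10.7), with the flap endonuclease Fen1 lowest at 2.66 CPM per kb. Length here counts every exon annotated for a gene and can exceed that of the transcript made. Rrm1, at 601 CPM over 11012 such bases, stood at 54.6 CPM per kb. The order between genes thus depends in part on the annotation. Exons of the opposite strand cover 84.2% of Fen1 and 67.3% of Gins2, and since no label says whether counting used strand, both levels are uncertain. In all, 17 of the 49 genes share exon bases with another gene, 8 of them over more than 10% of their length. Processed copies also took counts of their own, between 539 and 889 a library for Pcna-ps2 and between 188 and 308 for Ccnb1-ps, beside at least 10334 for Pcna and 5250 for Ccnb1, and how reads were split between copies is not given.

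Across the 6 libraries the highest value of a gene was at most 1.49 times its lowest, the range of Cdca7, and Cenpf, a kinetochore protein, varied least at 1.06 times. The median range was 1.25-fold for replication and 1.20-fold for mitotic genes. Of the 9560 genes with a mean CPM at least that of the lowest of the 49, 67.3% stayed within 1.5-fold, with a median range of 1.35-fold. With upper quartile scaling in place of TMM, Cdca7 reached 1.58-fold.

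**Figure D2:**
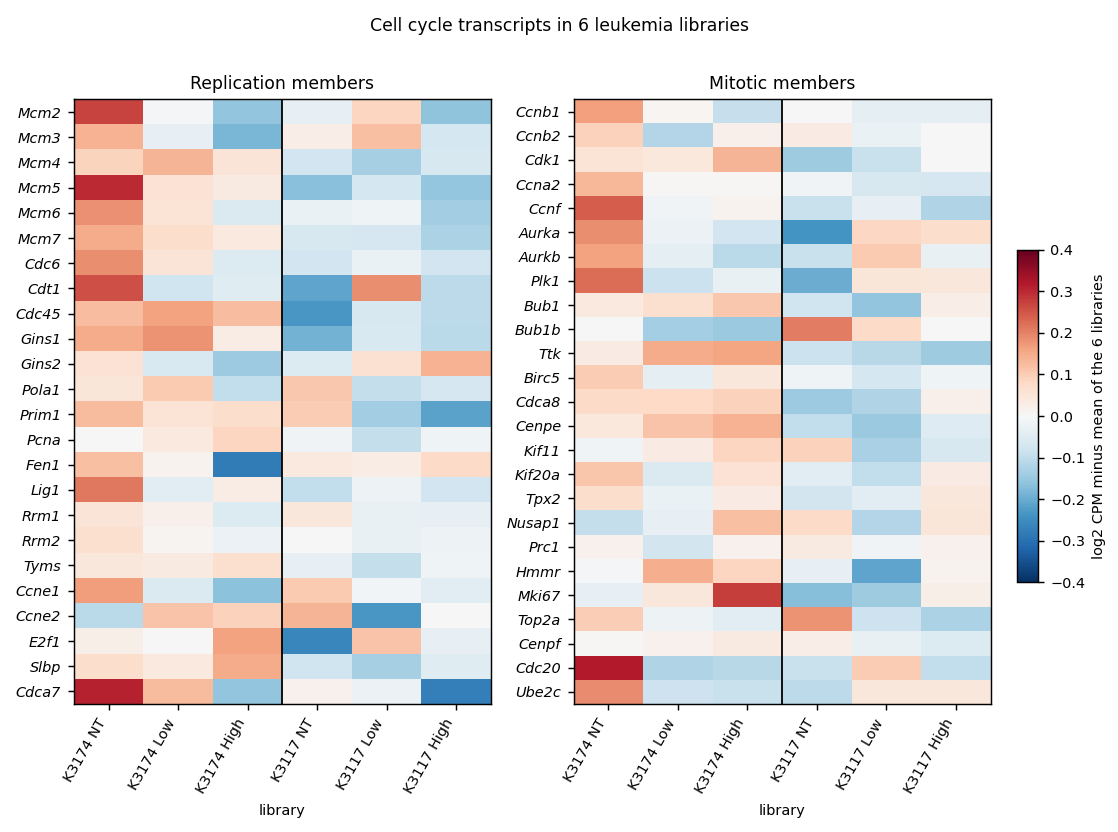
Log2 CPM of each gene (rows, replication left and mitosis right) in each library (columns, K3174 then K3117, each with NT, Low and High), minus the gene's mean over the 6 libraries, from blue (lower) to red (higher). The K3174 NT column is red for most genes, and the strongest reds there are those of Mcm2, Mcm5, Cdc20 and Cdca7.

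DOT1L High and NT cells differed little in these genes. In High against NT, 1 of 49 genes passed an adjusted p of 0.05 (2.04%), while 2741 of the 15812 genes tested passed (17.3%), 1583 of them higher (10.0%) and 1158 lower (7.32%). The gene that passed was Cdca7, lower in High, a zinc finger protein that works with the chromatin remodeller HELLS. None of the 25 mitotic genes passed in edgeR's quasi-likelihood test, none had an unadjusted p under 0.05, and none passed in DESeq2. The median log2 fold change was -0.09 over replication genes (18 of 24 below 0) and -0.01 over mitotic genes (14 of 25 below 0), beside -0.01 over all genes tested (8135 of 15812 below 0). The replication median was -0.135 within K3174 (18 of 24 below 0) but -0.001 within K3117 (12 of 24 below 0). Mitotic medians were -0.051 within K3174 (14 of 25 below 0) and -0.0 within K3117 (13 of 25 below 0). Those of all genes tested were -0.001 and -0.012. The median size of the log2 fold change, sign aside, was 0.088 for the 49 genes and 0.267 for all genes. For 47 of the 49 genes the whole fitted 95% interval lay within 1.5-fold either way, the exceptions being Cdca7 and Fen1. With 2 residual and 9.38 prior degrees of freedom, the spread behind these intervals was drawn largely from other genes. The interval also lay within 1.5-fold for 37.4% of all genes tested. Neither that share nor the median size over all genes was matched for level. Of the 15812 genes, 9560 had a mean CPM at least that of Fen1, the lowest of the 49, and the others of the 49 stood above 36 CPM. Without the leukemia as a block, 493 genes passed in place of 2741 and no replication gene did. With upper quartile scaling the median of all genes moved to -0.11 and those of replication and mitotic genes to -0.18 and -0.11, and the share of calls that were higher in High was 43.9% there and 49.1% with library sizes alone, against 57.8% with TMM.

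**Figure D3:**
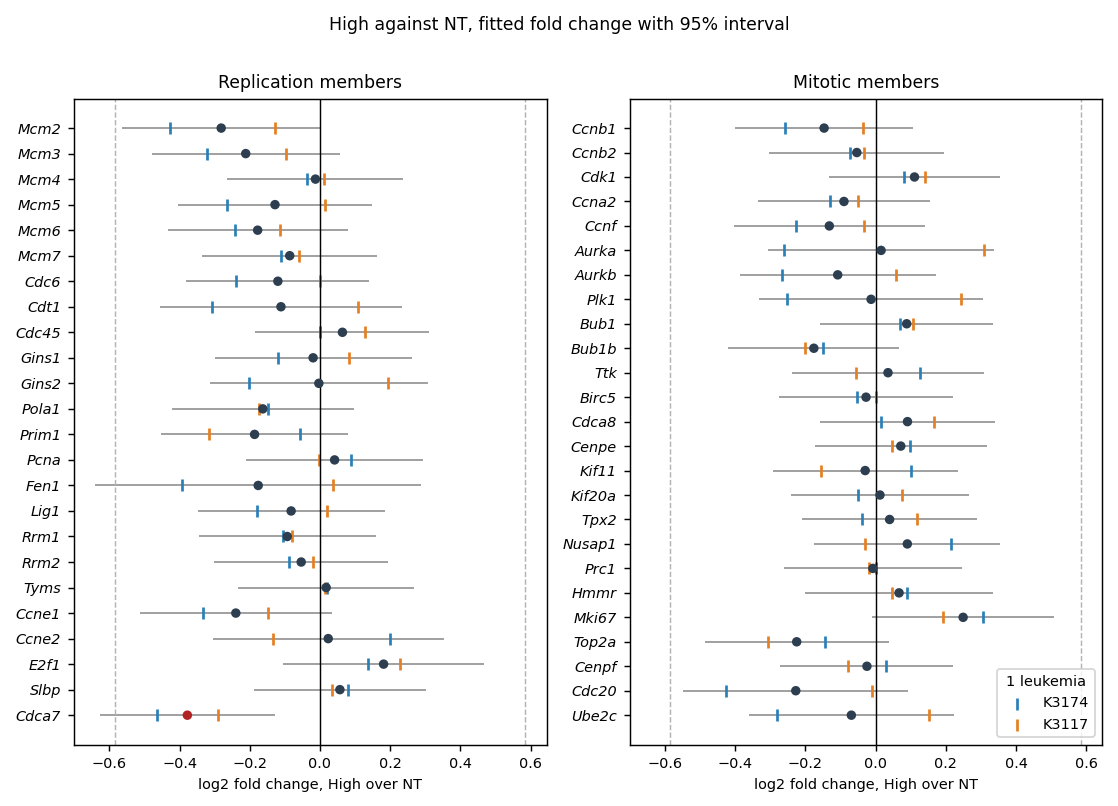
Fitted log2 fold change of High over NT (dots) with its 95% interval (grey bars) for the 24 replication genes (left) and the 25 mitotic genes (right), with the log2 CPM difference within K3174 (blue ticks) and within K3117 (orange ticks). The red dot is Cdca7, whose interval ends at -0.13, and the dashed lines mark 1.5-fold either way.

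The helicase acts first. Its 6 subunits Mcm2 to Mcm7 all had fitted values below 0 in High against NT, between -0.28 for Mcm2 and -0.01 for Mcm4, and none passed. That count of 6 held under each of the scalings tried, but was 5 without High and without NT of K3174. The scalings were a weak check, since library sizes alone and upper quartile factors moved the median of all genes down, to -0.07 and -0.107. Mcm2 stood at 527, 435 and 392 CPM in NT, Low and High of K3174, and at 428, 463 and 391 CPM in NT, Low and High of K3117. Both High libraries lay below both NT libraries, with a log2 fold change of -0.28 ± 0.13 (SE, n = 2 libraries a group) and an edgeR adjusted p of 0.17. Mcm5 stood at 577, 488 and 481 CPM in the same order in K3174 and at 417, 447 and 421 CPM in K3117. Its NT library of K3174 was far above the other 5, and the groups overlapped (-0.13 ± 0.13, adjusted p = 0.57). Within the leukemias, all 6 subunits were lower in High than in NT in K3174, and 4 of 6 in K3117.

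The loading factor Cdc6 was at 115, 105 and 97.6 CPM in NT, Low and High of K3174, and at 96.0, 99.5 and 96.1 CPM in K3117. Only the K3174 NT library stood out, and the groups overlapped (-0.12 ± 0.12, adjusted p = 0.58). The other loader Cdt1 and the helicase activators Cdc45, Gins1 and Gins2 had log2 fold changes between -0.11 and 0.06 and did not pass. Pola1 and Prim1, of the polymerase that lays the first primers, were at -0.16 and -0.19.

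Pcna, the clamp that holds polymerases on DNA, was at 464, 478 and 493 CPM in NT, Low and High of K3174, and at 460.5, 435 and 459 CPM in K3117. The groups overlapped, and the log2 fold change was 0.04 ± 0.11 (adjusted p = 0.87). Rrm2, which supplies deoxynucleotides, was at 406, 391 and 382 CPM in K3174 and at 388, 380.5 and 383 CPM in K3117. Tyms, which makes thymidylate, was at 89.1, 88.5 and 90.4 CPM in K3174 and at 84.5, 81.0 and 85.4 CPM in K3117. Both genes were nearly level over all 6 libraries, with log2 fold changes of -0.05 and 0.02. Lig1 and Rrm1 were at -0.08 and -0.09.

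Among the regulators of entry into S phase, the cyclin Ccne1 was at 55.9, 47.8 and 44.4 CPM in NT, Low and High of K3174, and at 53.5, 49.3 and 48.3 CPM in K3117. Its High libraries both lay below its NT libraries (-0.24 ± 0.13, adjusted p = 0.24). The transcription factor E2f1 was at 79.0, 77.7 and 86.9 CPM in K3174 and at 64.9, 84.3 and 75.9 CPM in K3117, lowest in the NT library of K3117. Its High value was above its NT value within each leukemia, but the groups overlapped (0.18 ± 0.13, adjusted p = 0.42). Slbp, which binds the ends of histone messages, was at 135, 133 and 143 CPM in K3174 and at 122, 118 and 125 CPM in K3117, with a log2 fold change of 0.06. Ccne2, the other E cyclin, was at 0.02.

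Cdca7 was at 199, 175 and 144 CPM in NT, Low and High of K3174, and at 163, 158 and 133 CPM in NT, Low and High of K3117. In both leukemias the order was NT, Low, High from highest to lowest, and both High libraries lay below both NT libraries. High was 0.770 times NT (95% interval 0.647 to 0.915, log2 fold change -0.38 ± 0.11, edgeR adjusted p = 0.04). The difference was -0.46 on the log2 scale within K3174 and -0.29 within K3117. The call rests on the whole set of libraries: it was lost without the leukemia block (adjusted p = 0.182) and without each of 5 libraries in turn, at an adjusted p of 0.427 without High and 0.0942 without NT of K3174, 0.16 without High of K3117, and 0.0809 and 0.0709 without Low of K3174 and of K3117. It held without NT of K3117 at 0.00488. Without that library the fit also called Mcm2 (-0.45), Mcm3 (-0.33), Cdt1 (-0.39) and the mitotic Cdc20 (-0.48), all lower in High. That fit left NT with the K3174 library alone. It called a larger share of all genes tested than of the replication and mitotic genes.

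No mitotic gene passed in the same contrast. The B cyclin Ccnb1, the partner that takes CDK1 into mitosis, was at 269, 241 and 225 CPM in NT, Low and High of K3174, and at 239, 233 and 233 CPM in K3117 (-0.15, not past the threshold). Its kinase Cdk1 was at 158, 157 and 167 CPM in K3174 and at 138, 143 and 152 CPM in K3117. Cyclin A2, Ccna2, was at 246, 226 and 225 CPM in K3174 and at 222, 215 and 215 CPM in K3117. Cdk1 thus had its highest value in High within each leukemia and the cyclins theirs in NT, but none of the 3 passed. Ccnf, the cyclin of an SCF ubiquitin ligase, was at 96.2, 80.5 and 82.2 CPM in K3174 and at 76.5, 79.5 and 74.8 CPM in K3117, with the K3174 NT library alone above the rest.

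Of the mitotic kinases, Aurkb, of the chromosome passenger complex, was at 162, 142 and 135 CPM in NT, Low and High of K3174, and at 137, 157 and 142 CPM in K3117. Plk1, which drives entry into mitosis and spindle assembly, was at 111, 89.6 and 93.1 CPM in K3174 and at 82.9, 98.4 and 98.2 CPM in K3117. For both, NT was the highest library in K3174 and the lowest in K3117. Their log2 fold changes in High against NT were -0.11 and -0.01. The checkpoint kinases Bub1, Bub1b and Ttk were at 0.09, -0.18 and 0.04, and Cdca8, a subunit of the passenger complex, was at 0.09. Birc5, the survivin subunit of the same complex, was at 110, 99.5 and 105 CPM in K3174 and at 101, 97.4 and 101 CPM in K3117.

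Mki67, which coats mitotic chromosomes and is read as a marker of cycling cells, was at 1047, 1105 and 1295 CPM in NT, Low and High of K3174, and at 952, 969 and 1087 CPM in K3117. Both High libraries lay above both NT libraries. High was 1.19 times NT (95% interval 0.993 to 1.42), and the adjusted p was 0.19. Top2a, the topoisomerase that untangles sister chromosomes, was at 1035, 953 and 937 CPM in K3174 and at 1096, 913 and 887 CPM in K3117. Here both High libraries lay below both NT libraries (-0.23 ± 0.12, adjusted p = 0.25). The largest mitotic value in either direction was thus that of Mki67, and the most abundant pair of mitotic messages had fitted values of opposite sign. Cdc20, the activator of the anaphase promoting complex, was at 163, 120.2 and 121 CPM in K3174 and at 123, 140.1 and 122 CPM in K3117, with a log2 fold change of -0.23 ± 0.15 (adjusted p = 0.35) that came almost wholly from K3174. The spindle and motor proteins Cenpe, Kif11, Kif20a, Tpx2, Nusap1, Prc1 and Hmmr were between -0.03 and 0.09.

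Low and NT cells did not differ detectably in these genes. None of the 49 genes passed in Low against NT (edgeR, 0 with an unadjusted p under 0.05, 0 in DESeq2), while 528 of all genes did (3.34%), 324 higher (2.05%) and 204 lower (1.29%). The median log2 fold change was -0.04 over replication genes (20 of 24 below 0) and -0.07 over mitotic genes (19 of 25 below 0), beside -0.01 over all genes (8332 of 15812 below 0). The replication median was -0.076 within K3174 (18 of 24 below 0) and -0.007 within K3117 (13 of 24 below 0). Mitotic medians were -0.118 within K3174 (16 of 25 below 0) and -0.048 within K3117 (15 of 25 below 0). The 95% intervals of all 49 lay within 1.5-fold, as they did for 48.4% of all genes, which were again not matched for level. The 2 largest values among replication genes were 0.18 for E2f1 and -0.17 for Ccne1. Among mitotic genes they were -0.19 for Top2a (edgeR adjusted p = 0.62) and -0.13 for Ccnb2 (adjusted p = 0.79). Ccnb2, a B cyclin like Ccnb1, was at 135, 116 and 128 CPM in NT, Low and High of K3174, and at 129, 124 and 126 CPM in K3117, lowest in Low in both. Without the block no gene of the table passed, and 950 had an unadjusted p under 0.05.

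High and Low cells were sorted from the same leukemias after DOT1L transduction, and no gene of the 49 passed between them either (edgeR and DESeq2, with 1 of 49 at an unadjusted p under 0.05, Cdca7), against 866 of all genes (5.48%), 652 higher in High (4.12%) and 214 lower (1.35%). Cdca7 was lower in High (-0.27, adjusted p = 0.27), and Mcm2 was at -0.20. The other end was held by Mki67 at 0.20 (adjusted p = 0.51) and by Nusap1, a microtubule bundling protein, at 0.16 (adjusted p = 0.65). Nusap1 was at 94.9, 99.1 and 110.2 CPM in NT, Low and High of K3174, and at 107, 93.6 and 105 CPM in K3117. Replication genes had a median of -0.04 (18 of 24 below 0) and mitotic genes of 0.06 (11 of 25 below 0), beside 0.00 over all genes tested (7856 of 15812 below 0). All 7 spindle and motor genes were above 0, between 0.06 and 0.16, but 3 of the 7 were below 0 with upper quartile scaling, and the mitotic median was -0.01 there. Without the block no gene of the table passed, and 1238 had an unadjusted p under 0.05. The contrasts share libraries, so their values for a gene are not independent.

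The K3174 NT library gave the highest value of 26 of the 49 genes, 14 of replication and 12 of mitosis, and the lowest of none. K3174 High gave the highest value of 12, of which 8 were mitotic, and the lowest of 9. K3117 Low gave the highest value of none and the lowest of 13, and K3117 NT the lowest of 14. Such counts were not taken over all genes. Within NT the median log2 difference of K3174 over K3117 was 0.16 for replication genes and 0.14 for mitotic genes, with 8 of the 49 below 0, beside 8036 of the 15812 genes tested. Within High it was 0.09 and 0.07, and within Low 0.10 and 0.05.

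Averaged over labels, 41 of the 49 genes were higher in K3174 than in K3117 by the fit, as were 7915 of the 15812 genes tested. The median log2 difference was 0.11 for replication and 0.07 for mitotic genes. None of the 49 passed in edgeR or DESeq2, against 1481 of all genes (9.37%), 482 higher in K3174 (3.05%) and 999 lower (6.32%). Unadjusted p was under 0.05 for 4 of the 49 (8.16%), namely Mcm5, Cdc45, Gins1 and Ttk, beside 20.1% of all genes. Cdc45, a part of the active helicase, was at 154, 158 and 154 CPM in NT, Low and High of K3174, and at 120.1, 135 and 131 CPM in K3117. All 3 K3174 libraries thus lay above all 3 of K3117, at 1.21 times their level (log2 difference 0.27 ± 0.09, edgeR unadjusted p = 0.0134 and adjusted p = 0.11). Ttk, a kinase of the spindle checkpoint, was at 53.6, 58.1 and 58.5 CPM in K3174 and at 49.4, 48.6 and 47.5 CPM in K3117. Cenpe, a kinetochore motor, was at 184, 194 and 197 CPM in K3174 and at 167, 162 and 173 CPM in K3117. For Ttk and Cenpe too, all 3 K3174 libraries lay above all 3 of K3117, with adjusted p of 0.24 and 0.26. How many of all genes separated in this way was not counted.

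Both DOT1L libraries lay below NT in K3174 and above NT in K3117 for 10 of the 49 genes (20.4%), namely Mcm5, Gins2, Cdc6, Cdt1, Lig1, Aurka, Aurkb, Plk1, Tpx2 and Ube2c, and for 10.4% of all genes. The reverse held for 6 of the 49 (12.2%) and for 10.3% of all genes. In a fit added after the values had been seen, which took Low and High as replicates of one another, the change of the DOT1L libraries from NT was compared between K3174 and K3117. None of the 15812 genes passed, and an unadjusted p was under 0.05 for 765 of them (4.84%) and for 5 of the 49 (10.2%). These 5 were Aurka (-0.55 ± 0.15, unadjusted p = 0.0137), Plk1 (-0.53 ± 0.15, 0.0186), Ube2c (-0.43 ± 0.14, 0.0303), Cdc20 (-0.52 ± 0.18, 0.0326) and Cdt1 (-0.58 ± 0.22, 0.0427), each with an adjusted p of 0.853. The sign says that DOT1L libraries minus NT was lower in K3174 than in K3117. Aurka, a kinase of spindle poles, was at 134, 116 and 112 CPM in NT, Low and High of K3174, and at 99.8, 125 and 124 CPM in K3117. Ube2c, the ubiquitin conjugating enzyme of the anaphase promoting complex, was at 144, 119 and 119 CPM in K3174 and at 118, 131 and 131 CPM in K3117. Cdt1 was at 140.3, 111 and 113 CPM in K3174 and at 101, 134 and 109 CPM in K3117. In all of them both DOT1L libraries lay below NT in K3174, and in all but Cdc20 both lay above NT in K3117. These 5 were picked by their p and rest on 1 NT library in each leukemia.

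**Figure D4:**
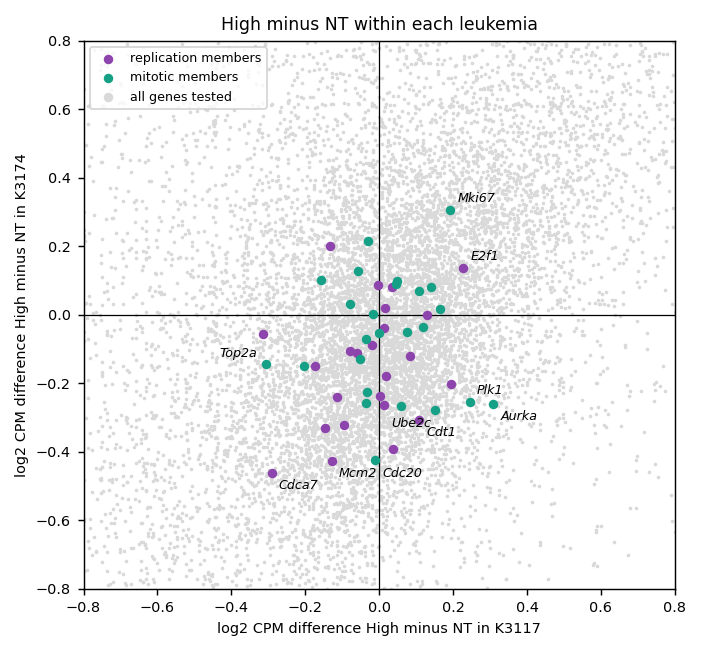
Log2 CPM difference of High minus NT within K3117 (horizontal axis) and within K3174 (vertical axis) for replication genes (purple), mitotic genes (green) and all genes tested (grey, cropped to the axes shown). Cdca7, at -0.46 in K3174 and -0.29 in K3117, lies in the lower left corner of the 49, Mki67 in the upper right, and Aurka, Plk1, Ube2c and Cdt1 to the lower right.

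Summed over their members, replication genes took 6460, 6010 and 5755 CPM in the NT, Low and High libraries of K3174, and 5707, 5762 and 5503 CPM in K3117. Mitotic genes took 5648, 5402 and 5630 CPM in K3174 and 5331, 5126 and 5293 CPM in K3117. The ratio of replication to mitotic sums was 1.14, 1.11 and 1.02 over NT, Low and High of K3174, and 1.07, 1.12 and 1.04 in K3117, lowest in High in both leukemias. Such sums weigh abundant genes most. Mki67 alone took 1047 CPM in NT and 1295 CPM in High of K3174, and 952 and 1087 CPM in K3117. The order of the ratios need not hold for the mitotic genes without Mki67, and a ratio without it was not taken.

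Over the same libraries late neutrophil markers rose. The 14 genes of that list summed to 211, 1470 and 7420 CPM in NT, Low and High of K3174, and to 87.5, 247 and 1840 CPM in K3117. Of the 13 tested, 12 rose in High against NT and 9 in Low against NT, and Retnlg was near 0 with at most 4 counts. Mast cell and basophil markers summed to 200, 279 and 846 CPM in K3174 and to 121, 186 and 473 CPM in K3117, and 5 of 6 tested rose in High against NT. Monocyte markers summed to between 224 and 374 CPM in K3174 and between 340 and 557 CPM in K3117, with 3 of 7 higher and 3 of 7 lower in High against NT. Erythroid markers summed to between 1.44 and 19.0 CPM. The T and NK cell list summed to 25.4, 47.5 and 56.2 CPM in K3174 and to 13, 28 and 45 CPM in K3117, with Cd3e and Cd8a at 0. In High against NT its Nkg7, a granule protein of cytotoxic cells, rose and its kinase gene Lck fell, and these 2 were the only genes of the 7 with enough counts to be tested. The B cell list summed to 168, 102 and 63.2 CPM in K3174 and to 249, 139 and 60 CPM in K3117, lower in High than in NT in both, with Ms4a1 at 0. Of its 3 genes tested, the immunoglobulin gene Ighm fell in High against NT, in Low against NT and in High against Low. The stromal and endothelial list summed to between 115 and 213 CPM with Col1a2, Col3a1 and Cxcl12 at 0, and none of its 2 tested passed in High against NT. The part of these cell types in the values of Cdca7 or any other of the 49 genes was not tested, and in bulk RNA a smaller number of cycling cells and less RNA per cycling cell cannot be told apart.

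**Figure D5:**
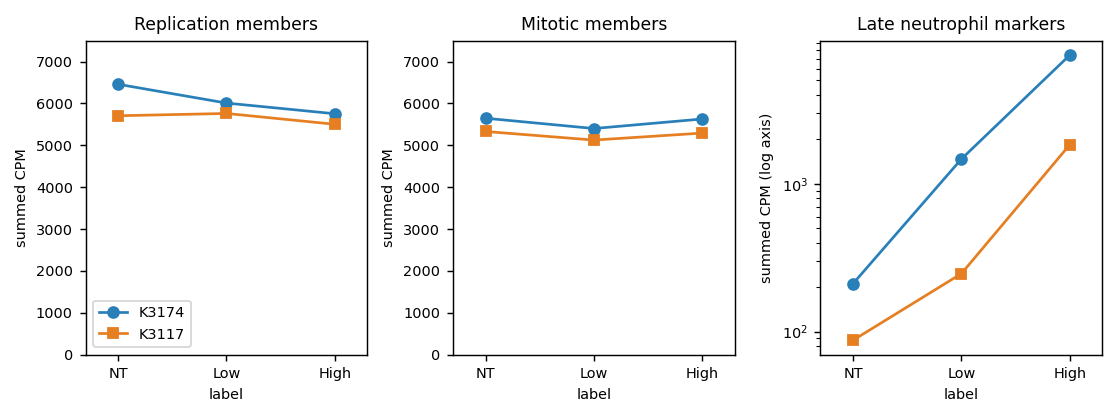
Summed CPM of the 24 replication genes, the 25 mitotic genes and the 14 late neutrophil markers (log axis in the last panel only) by label for K3174 (blue circles) and K3117 (orange squares), 1 library a point. The replication and mitotic lines stay between 5126 and 6460 CPM while the neutrophil markers reach 7420 CPM in K3174 High and 1840 CPM in K3117 High.

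Few other genes of the same machinery passed. Of 36 further replication genes, 2 fell (5.56%, beside 7.32% of all genes) and none rose in High against NT, with a median log2 fold change of -0.08. The accessory polymerase subunits Pola2, of polymerase alpha, and Pold2, of polymerase delta, were the ones that fell. Pola2 was at 103, 81.0 and 72.2 CPM in NT, Low and High of K3174, and at 95.9, 90.1 and 74.3 CPM in K3117 (-0.44 ± 0.12, edgeR adjusted p = 0.026). Pold2 was at 110, 82.3 and 64.8 CPM in K3174 and at 88.0, 102 and 75.9 CPM in K3117 (-0.50 ± 0.15, adjusted p = 0.045). Both High libraries lay below both NT libraries for each. Of 38 further mitotic genes, the centrosomal kinase Nek2 fell (2.63%, beside 7.32% of all genes) and none rose, with a median of -0.00. Nek2 was at 97.9, 81.4 and 65.8 CPM in K3174 and at 92.4, 85.7 and 77.3 CPM in K3117 (-0.41 ± 0.12, adjusted p = 0.039). None of these calls held without High of K3174 (adjusted p = 0.232 for Pola2, 0.348 for Pold2 and 0.541 for Nek2) or without NT of K3174 (0.0712, 0.375 and 0.129 in the same order). Without High of K3117 Pola2 (0.156) and Nek2 (0.0755) were lost, and Nek2 also without Low of K3117 (0.0597) and Low of K3174 (0.0664). Without the leukemia block the adjusted p was 0.0914 for Pola2, 0.184 for Pold2 and 0.132 for Nek2. In edgeR no gene of either list passed in the other contrasts, where of the replication list 1 gene in each had an unadjusted p under 0.05, and of the mitotic list 0 in Low against NT, 0 in High against Low and 4 (10.5%) in K3174 against K3117. Of all genes, 13.3%, 15.3% and 20.1% had one in those 3 contrasts.

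Among 18 RB, E2F and MuvB regulators, the median in High against NT was 0.13 and Rb1 rose (5.56%, beside 10.0% of all genes). Rb1, the retinoblastoma protein that holds E2F in check, was at 33.4, 48.8 and 64.9 CPM in NT, Low and High of K3174, and at 52.6, 47.2 and 60.2 CPM in K3117 (0.56 ± 0.18, adjusted p = 0.049). High lay above NT in both, by far more in K3174, and the call was lost with library sizes alone (adjusted p = 0.0901) with upper quartile scaling (0.0946) and with a mean CPM of at least 5 (0.0808), without High (0.398) or NT (0.352) of K3174, and without the block (0.231). E2f2, an activator of the E2F family, rose in High against Low (0.63 ± 0.15, adjusted p = 0.029). It was at 50.6, 36.7 and 67.5 CPM in NT, Low and High of K3174, and at 46.1, 35.6 and 46.1 CPM in K3117, lowest in Low in both. That call was lost without Low of K3117 (adjusted p = 0.0755), High of K3174 (0.623) or Low of K3174 (0.386), and without the block (0.436). Tfdp2, a dimerization partner of E2F, was lower in K3174, at 26.2, 34.9 and 36.6 CPM against 40.8, 44.6 and 43.8 CPM in K3117 over NT, Low and High (-0.42 ± 0.11, adjusted p = 0.043), a call that was lost whichever of the 6 libraries was left out (adjusted p between 0.0547 and 0.174), with a mean CPM of at least 5 (0.0645) and without the label terms (0.403).

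Of 14 inhibitors and checkpoint kinases, 2 fell (14.3%, beside 7.32% of all genes) and none rose in High against NT, with a median of -0.14. Cdkn2c, an INK4 inhibitor of CDK4 and CDK6, was at 53.1, 40.5 and 32.6 CPM in NT, Low and High of K3174, and at 159.6, 117 and 83.3 CPM in K3117. High lay below NT in both leukemias, and the leukemias did not overlap. It fell in High against NT by 0.82 ± 0.12 on the log2 scale (adjusted p = 0.00061) and was lower in K3174 than in K3117 (-1.49 ± 0.10, adjusted p = 3e-06). Cdkn1c, a CIP/KIP inhibitor, had 15, 7 and 2 counts in NT, Low and High of K3174, and 48, 20 and 4 counts in K3117. It was lower in High in both (-3.08 ± 0.59, adjusted p = 0.0037), on few counts. Cdkn1a, the p21 inhibitor that p53 induces, was lower in K3174, at 65.7, 47.0 and 60.5 CPM, than in K3117, at 120, 103 and 91.0 CPM over NT, Low and High (-0.86 ± 0.12, adjusted p = 0.00054). Wee1, an inhibitory kinase of CDK1, was the only other gene of the list that passed between the leukemias, lower in K3174 with an adjusted p of 0.044. Its call was not followed through the alternative fits. Of the 14 genes, 3 were thus lower in K3174 (21.4%, beside 6.32% of all genes). Without the leukemia block the High against NT calls of Cdkn2c and Cdkn1c were lost (adjusted p = 0.562 and 0.11), and without the label terms those of Cdkn2c and Cdkn1a between the leukemias (0.0945 and 0.0983). A fit without the block counts the difference between the leukemias as spread. Leaving out 1 library at a time, the log2 fold change in High against NT ran between -0.924 and -0.7316 for Cdkn2c. For Cdkn1c it ran between -3.3153 and -2.9266. Between the leukemias the ranges were -1.5545 to -1.4344 for Cdkn2c and -0.996 to -0.7211 for Cdkn1a.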

How the data were processed

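RNA-seq of 6 libraries was deposited as whole-number counts per gene, 1 column per library, and was used as deposited. Per the submitters' processing notes, the authors used mm10 and kallisto, DESeq2, STAR and STAR-Fusion, with no versions; the tool that made the counts, its annotation and whether it used strand are not given. Reads were paired, of 150 bp, per the labels' protocols. Symbols were matched for 99.5% of IDs, and 259 IDs had none. In R 4.3.3, edgeR 4.0.16 kept 15812 genes by its expression filter, scaled libraries by TMM (factors 0.973 to 1.04) and fitted a quasi-likelihood model with label and leukemia to all 6 libraries (2 residual and 9.38 prior degrees of freedom, common biological coefficient of variation 12%). Calls were made at 0.05 after Benjamini-Hochberg adjustment over all genes tested, the SE is the log2 fold change over the root of F, and log2 differences between libraries of a leukemia were taken with a prior count of 2.

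The leukemia stood as a block because every label has 1 library of each K number in its titles. Deviations of same-numbered libraries correlated across genes at 0.438 (High, NT), 0.57 (Low, NT) and 0.64 (High, Low). A check for a library deposited more than once found none (chi-square of 24.2 or more per degree of freedom for every pair), which does not show that the libraries are independent. The genes and lists were chosen with earlier results of these data known. Values in every library were given for fixed representatives of each role, genes past the threshold and the 2 largest changes of each class in each contrast; Aurka, Ube2c and Cdt1, genes on opposite sides of NT in the leukemias, and genes called without 1 library were named after their values were seen. Outside the 49, Dot1l and up to 2 genes of a list with the smallest p among those past the threshold were named, and Wee1 was added. Alternatives were other scalings, filters, DESeq2 1.42.0, no block and leaving out each library. Positions are counted from 1 on GRCm38, promoters are from RefSeq on GRCm38.p6 and exon lengths and overlaps from GENCODE on GRCm38.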

Additional observations from a re-analysis of the deposited data

How the results depend on the processing

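The calls for the 49 genes rested on few libraries, with 2 a group, and each gene had at least 152 counts in every library. Leaving out 1 library at a time gave between 1927 and 4394 genes called in High against NT, between 144 and 1483 in Low against NT, between 335 and 1982 in High against Low and between 829 and 2642 in K3174 against K3117. In High against NT it gave between 0 and 4 replication genes and between 0 and 1 mitotic genes called, and a mitotic median between -0.0491 and 0.0095. The replication median in High against NT ran between -0.1197 and -0.0263, the last without NT of K3174. In High against Low the replication median ran between -0.1008 and -0.0071 and the mitotic median between 0.0168 and 0.0646. In K3174 against K3117 the replication median ran between 0.0853 and 0.152. In the fit with no replicate block, which gives up the pairing by leukemia, 493 genes and 0 replication genes were called in High against NT, 0 in Low against NT and 0 in High against Low, where the mitotic median was 0.0587. Without the label terms 90 genes were called between the leukemias. With no filter 1071 genes were called in Low against NT and 1425 in High against Low, with medians of -0.0668 and 0.0355 for replication and mitosis in the last. With a mean CPM of at least 5, the calls were 343 in Low against NT, 522 in High against Low (mitotic median 0.0537) and 849 between the leukemias. With library sizes alone the mitotic median was -0.0689 in High against NT and 0.0167 in High against Low, and the replication median -0.086 in High against Low. With upper quartile factors the replication and mitotic medians were -0.1845 and -0.1066 in High against NT, and -0.1084 and -0.0062 in High against Low. With DESeq2 size factors and with the DESeq2 Wald test the mitotic median in High against Low was 0.0581. The adjusted p of Cdca7 in High against NT ran between 0.00488 and 0.427 over 13 alternatives, 7 of them under 0.05, with a log2 fold change between -0.47 and -0.30 throughout. Of the alternatives for single genes, 2400 either kept a call or stayed uncalled and within the replicate spread. In 283 the gene stayed uncalled but moved by at least that spread. In all, 41 calls were lost and 5 were gained, and none reversed a called direction. Causes were not tested.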
